A study of Mus musculus with 3 samples.

Results

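The 33 genes described here are a set of glycolysis and hypoxia-response genes, taken by mouse symbol from a fixed list, of 54331 features in the deposited table. All 33 symbols were found, and all 33 had a mean value of at least 10 normalized counts, the minimum for testing that 13877 features passed. They comprise 24 genes of glucose uptake, glycolysis and lactate or pyruvate handling and 9 genes of the hypoxia response. Transcripts were sequenced in RAW 264.7 cells, a BALB/c-derived male mouse macrophage line, and every library came from cells given LPS, a bacterial ligand of TLR4, at 100 ng/mL for 5 h. One library carried a control shRNA (labelled wild-type) and the other two carried shRNA 1 or shRNA 2 against GIV (Girdin, gene Ccdc88a; labelled GIV-depleted). No library without LPS was analysed here, so the values say nothing of induction by LPS. Nothing in the labels says whether the shRNA cells were clones, pools or separate cultures beyond calling the 2 shRNAs biological replicates. The p-values below take their spread from the gap between the 2 GIV shRNA libraries, moderated by a trend over all features tested. They hold no measure of spread among controls.

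Glycolysis splits glucose into pyruvate, and its enzymes act in order from hexokinase to pyruvate kinase, after which lactate dehydrogenase turns pyruvate into lactate. Macrophages stimulated through TLR4 are known to rely heavily on this route, and HIF-1, a transcription factor made of an oxygen-sensitive alpha subunit and the stable partner Arnt, drives many of its genes. Prolyl hydroxylases of the Egln family mark the alpha subunit for degradation when oxygen is present, and some of them are HIF-1 targets themselves.

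Column totals lay between 47349097 and 49756670 normalized counts, and the commonest lowest value above 0 ran from 0.931 to 1.11, so that a value near 1 stands for about 1 read. Ccdc88a, the targeted gene, had 2580 normalized counts with the control shRNA, 1734 in the shRNA 1 library and 2561 in the one labelled shRNA 2. That last level goes against the label, and each direction below that uses both libraries rests in part on it. Macrophage markers were present, all 10 of 10 above the minimum, while their summed value was 466996 in the control, 360515 with shRNA 1 and 380769 with shRNA 2. Defining markers of T cells (Cd3e, Trac), epithelium (Epcam, Cdh1) and neutrophils (Elane, Ly6g) were listed at 0 in every library. Summed markers of the other types ranged from 1023 to 1166 for T cells, nearly all of it Lck, from 143 to 172 for B cells, mostly Pax5, from 45.6 to 78.4 for neutrophils, mostly S100a8, from 3.34 to 5.61 for fibroblasts, where Col3a1 was at 0 throughout, and from 0 to 4.45 for epithelium. The share of the total from the mitochondrial genome was 1.43% in the control, 0.995% with shRNA 1 and 1.14% with shRNA 2. The difference from the control was also larger for longer transcripts and smaller for GC-rich ones under either shRNA, with Spearman's rho across 11568 protein-coding genes of 0.21 and 0.20 for length and -0.25 and -0.19 for GC content. The part of these shifts in the values below was not tested, other than by refitting with the GC and length trend removed.

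Setting both GIV shRNA libraries against the control addressed whether transcripts of sugar metabolism and the hypoxia response differ in LPS-treated macrophages given shRNAs against GIV. Most of these genes lay close to the control: 28 of 33 were within 1.5-fold of it in both libraries, against 74.8% of all features tested. These genes are abundant, with a median mean value of 10304 normalized counts against 823 over all features tested. The median difference on the log2(value + 1) scale, which understates changes of low genes, was 0.05, set beside -0.001 over all features. Taken singly, shRNA 1 had a median of -0.03 and shRNA 2 one of 0.14. In limma, with Benjamini-Hochberg adjustment over all 13877 features, 0 of 33 genes passed an adjusted p of 0.05 (0% of all features), and the lowest adjusted p among them was 0.59. An unadjusted p under 0.05 was reached by 2 genes, Hk3 and Egln3, a share close to the 6.94% of all features. Both libraries labelled GIV-depleted exceeded the control for 13 genes, against 34.9% of all features, and both were below it for 4, against 35.2%. The remaining 16 had the control between the other libraries.

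**Figure D1:**
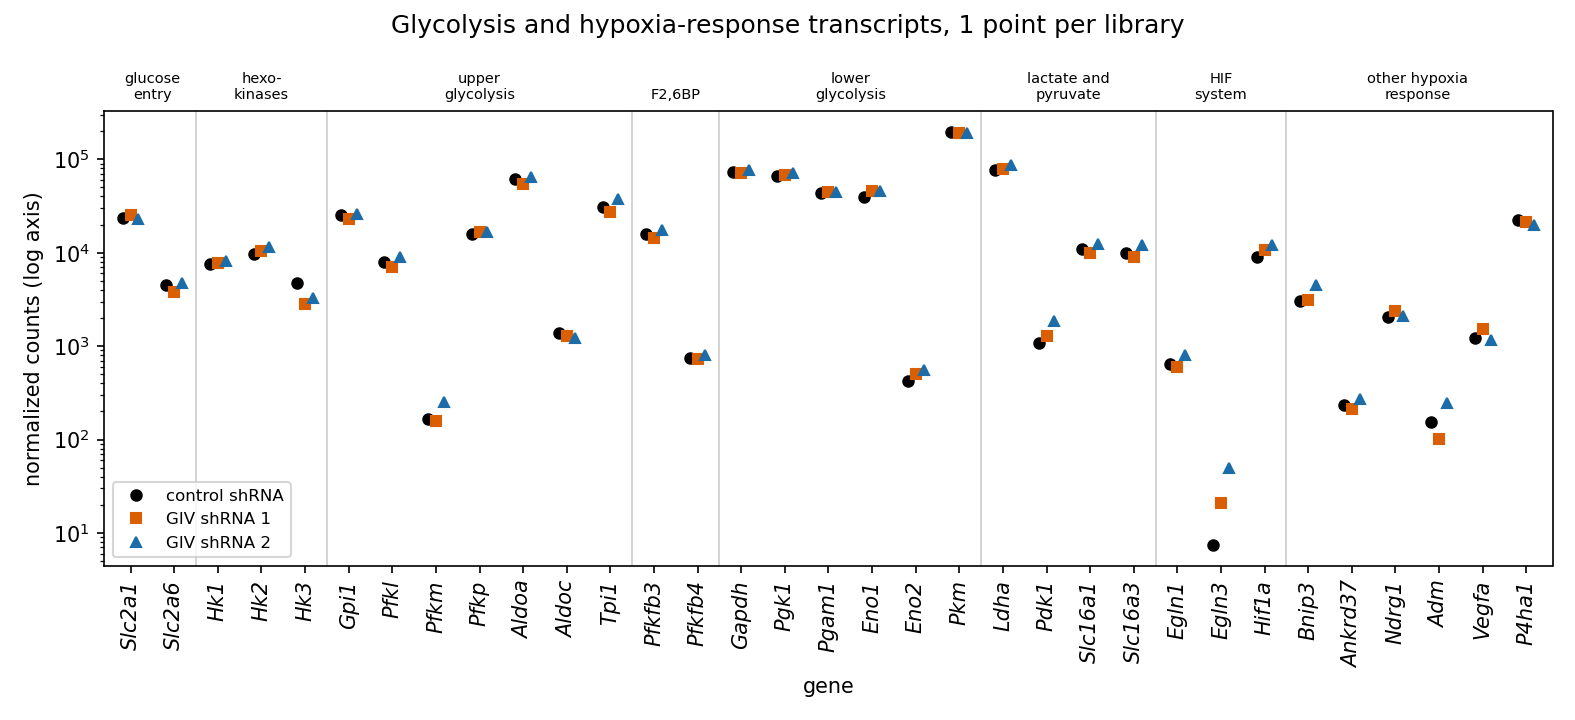
Normalized counts (log axis) of the 33 genes, ordered by role, with 1 point per library for the control shRNA, GIV shRNA 1 and GIV shRNA 2. The 3 points of a gene nearly coincide for abundant enzymes such as Pkm and Pgam1, and stand apart for Egln3, Adm and Hk3.

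The 2 shRNAs differed from each other in a common direction for most of these genes. Values in the library labelled shRNA 2 exceeded those in the library labelled shRNA 1 for 27 of 33 genes, or 81.8%, against 49.5% of all features tested. That comparison was chosen after the values were seen, has 1 library on each side and no test, and its 33 genes are not independent replicates. The count was 26 with the GC and length trend removed and 28 with equal totals. The median difference of shRNA 2 from shRNA 1 was 0.16 on the log2 scale, and 3 genes were at least 1.5-fold apart (Pfkm, Egln3 and Adm), against 15.5% of all features. The library labelled shRNA 2 is also the one in which Ccdc88a differed from the control by only -0.01 on the log2 scale. Summed, the 33 genes took 1.56% of all normalized counts in the control, 1.52% with shRNA 1 and 1.71% with shRNA 2. In the further lists read below, the share of genes higher with shRNA 2 than with shRNA 1 varied. It was 52.6% for further glycolysis and glucose-entry genes and 66.7% for the second hypoxia list. For pentose phosphate, glycogen and serine branch genes it was 75%, and for regulators of HIF 25%.

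**Figure D2:**
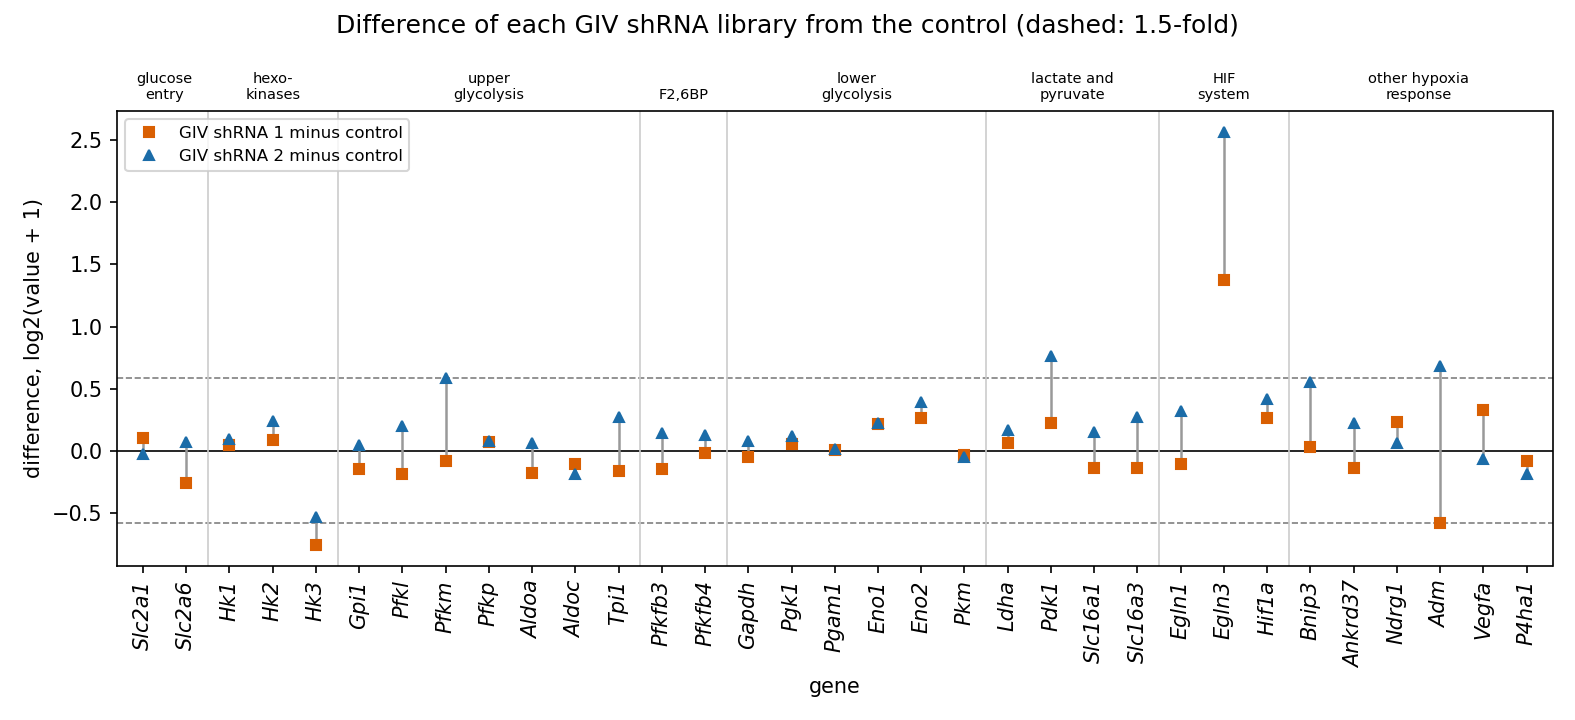
Difference of each library labelled GIV-depleted from the control on the log2(value + 1) scale, by gene, with squares for shRNA 1, triangles for shRNA 2 and a grey line joining them; both share the 1 control library. The triangle lies above the square for 27 of 33 genes, and Hk3 is the gene with both points well below 0.

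Glucose transporters lay close to the control. Slc2a1, the main GLUT1 transporter, had 23345 normalized counts in the control, 25127 with shRNA 1 and 22888 with shRNA 2, the control lying between the others. Slc2a6, a transporter found in activated macrophages, had 4531 in the control, 3784 with shRNA 1 and 4754 with shRNA 2, again with the control between. Neither had a mean difference over 0.10 in size.

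The hexokinases, which trap glucose in the cell by phosphorylating it, did not move as one. Hk3, the form found mainly in white blood cells (chromosome 13, 55005985 to 55021385, GRCm38), had 4763 normalized counts in the control, 2816 with shRNA 1 and 3290 with shRNA 2. The control was above both, and the log2 difference was -0.65 (SE 0.16, adjusted p = 0.59 in limma). That difference ranged from -0.65 to -0.63 over the scalings, filters and pseudocounts tried, and was -0.56 once the trend with GC and length was taken out. The summed macrophage markers given above were likewise lower in both libraries, mostly through Lyz2, a lysozyme, with 199781 normalized counts in the control, 121997 with shRNA 1 and 138145 with shRNA 2. Fcgr1, with 48715 normalized counts in the control, 32239 with shRNA 1 and 33167 with shRNA 2, was also highest in the control. So were Csf1r, Cd68, Spi1 and the scarce Mertk. Adgre1, Itgam and Cd14 had the control between the other libraries. Only Ptprc was lowest in the control, with 14039 there, 16968 with shRNA 1 and 14590 with shRNA 2. The part of the markers in the Hk3 value was not tested. In bulk RNA, fewer cells with a transcript and less of it per cell cannot be told apart. Hk2, the inducible form, had 9803, 10404 and 11593 normalized counts in the control, shRNA 1 and shRNA 2 libraries, an order in which values are given from here on. Hk1, the housekeeping form, had 7535, 7793 and 8060. Both of these were lowest in the control, by a mean difference of 0.16 (SE 0.14) for Hk2 and 0.07 (SE 0.12) for Hk1. Per kilobase of the longest annotated transcript, Hk3 made up 29.5% of the hexokinase total in the control, 19.1% with shRNA 1 and 20.4% with shRNA 2. With the median transcript length in its place these shares were 8.69%, 5.12% and 5.60%, so its share was lower than the control's at both lengths while the size of that share depended on the length used. The hexokinase total per kilobase has no settled direction, since it differed from the control by -0.13 with shRNA 1 and -0.003 with shRNA 2 on the log2 scale at the longest length, and by 0.006 and 0.10 at the median length.

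Hk3 is 1 of 4 genes whose upstream sequence is shown, picked, with their values in view, for large differences from the control in 1 or both libraries. The 250 bases before the RefSeq start (GRCm38.p6) are printed 5′ to 3′ on the gene's strand, with the core of the hypoxia-response element, ACGTG or GCGTG on either strand, in capitals. The windows are chr13:55021386-55021635 (minus strand) for Hk3, chr12:54203875-54204124 (minus strand) for Egln3, chr2:71872974-71873223 (plus strand) for the first start of Pdk1 and chr7:138909507-138909756 (minus strand) for Bnip3.
Hk3: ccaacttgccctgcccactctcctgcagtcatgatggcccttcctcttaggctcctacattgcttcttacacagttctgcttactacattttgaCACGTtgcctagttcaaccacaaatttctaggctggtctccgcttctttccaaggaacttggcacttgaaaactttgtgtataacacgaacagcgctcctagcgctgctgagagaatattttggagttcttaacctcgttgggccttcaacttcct
Egln3: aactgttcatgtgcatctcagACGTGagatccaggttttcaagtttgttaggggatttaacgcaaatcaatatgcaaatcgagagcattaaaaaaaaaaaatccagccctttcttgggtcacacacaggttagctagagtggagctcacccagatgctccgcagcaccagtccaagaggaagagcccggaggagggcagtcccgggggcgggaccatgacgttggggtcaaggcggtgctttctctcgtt
Pdk1: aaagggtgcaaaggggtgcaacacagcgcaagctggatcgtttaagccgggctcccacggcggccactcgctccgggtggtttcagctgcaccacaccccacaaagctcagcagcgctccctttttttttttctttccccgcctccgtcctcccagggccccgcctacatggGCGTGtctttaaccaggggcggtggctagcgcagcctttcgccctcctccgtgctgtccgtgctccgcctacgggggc
Bnip3: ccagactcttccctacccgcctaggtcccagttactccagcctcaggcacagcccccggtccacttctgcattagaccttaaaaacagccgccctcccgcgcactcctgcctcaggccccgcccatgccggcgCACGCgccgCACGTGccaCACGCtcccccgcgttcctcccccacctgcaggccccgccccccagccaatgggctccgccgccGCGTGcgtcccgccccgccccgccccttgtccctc
Hk3, Egln3 and Pdk1 each hold 1 match, and Bnip3 holds 5, of which 2 are the overlapping reads of a single CACGTG on its strands. RefSeq windows were found for 32 of the 33 genes, 46 windows in all, and 29 of these 32 genes had at least 1 match. The share of all genes with a match was not counted. Several windows were found for 10 of these genes, some of them overlapping, so a match can count more than once by window. By window the share was 80.4%, against 38.6% of all 32851 windows of the same length. For ACGTG alone the shares were 47.8% and 16.6%. Many of these genes were listed as known hypoxia targets, GC content of the windows was not matched, and a match is a description of letters and not of a bound site.

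The remaining enzymes of upper glycolysis mostly had the control between the other libraries. Gpi1, which makes fructose 6-phosphate, had 25288, 22897 and 26178 normalized counts. Among phosphofructokinases, which commit sugar to glycolysis, the liver type Pfkl had 7906, 6951 and 9093 and the platelet type Pfkp had 15881, 16634 and 16750. The muscle type Pfkm was scarce, with 167, 158 and 252, so that only shRNA 2 was apart from the control, by 0.59 on the log2 scale. Aldoa, the main aldolase, had 61481, 54366 and 64126, whereas the brain type Aldoc had 1382, 1282 and 1216, highest in the control. A second feature named Aldoa, next to the first on chromosome 7, had only 12.0, 8.74 and 14.9 and was left out. Tpi1, which interconverts the triose phosphates, had 30903, 27536 and 37393, the widest gap between the 2 shRNAs among these abundant enzymes (0.44 on the log2 scale). Pfkfb3, which makes the phosphofructokinase activator fructose 2,6-bisphosphate, had 16026, 14483 and 17666, and its relative Pfkfb4 had 740, 729 and 809. Of these 9 genes, Aldoc was the 1 with the control above both others and Pfkp the 1 with it below both. After removal of the GC and length trend, the mean difference of Pfkp turned negative, at -0.09, and that of Aldoa positive, at 0.12.

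All 6 genes of lower glycolysis were within 1.5-fold of the control in both libraries, against 74.8% of all features tested. They are abundant, with a median mean value of 56337 normalized counts against 823 over all features tested. Pkm, pyruvate kinase of the M type, had 197715, 193013 and 191137 normalized counts, a mean difference of -0.04 (SE 0.16) that turned to 0.06 with the GC and length trend removed. Per kilobase of the longest annotated transcript it was also the highest of the 33 genes in every library, at 81297 in the control, ahead of Ldha at 42018. This order depends on the transcript length used and on whether the near-identical copies described below are added. With the median length and copies added, Gapdh was ahead of Pkm in the control and with shRNA 2. Pgam1, phosphoglycerate mutase, had 44031, 44143 and 44548. Its libraries differed by at most 0.02 on the log2 scale. Pgk1, an ATP-generating kinase, had 65698, 68202 and 71403, and Gapdh, the dehydrogenase step before it, had 73304, 70655 and 77237. Eno2, the neuronal-type enolase, was scarce but lowest in the control, with 425, 509 and 559 (difference 0.33, SE 0.20).

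Eno1, the main enolase, had 39176, 45599 and 45809 normalized counts, the control lowest and both others about equal, a difference of 0.22 (SE 0.13, adjusted p = 0.78 in limma). This value is uncertain, because transcripts of near-identical copies hold most of the enolase signal. Eno1b (chromosome 18) had 60800, 50939 and 55904, and the processed pseudogene Gm4735 (chromosome 2, 80837141 to 80838442, GRCm38) had 30532, 26637 and 31254. Unlike Eno1, both were below the control with shRNA 1, and Eno1b was below it with shRNA 2 as well. Summed with all copies of at least 90% identity over 300 bases, Eno1 had 130539, 123205 and 133004. That sum was lower than the control with shRNA 1 by 0.08 on the log2 scale and higher with shRNA 2 by 0.03, and the mean difference of 0.22 became -0.03.

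A similar division held for Gapdh. Of 172 copies in the table, the processed pseudogene Gm13394 (chromosome 2, 28933610 to 28934609) alone had 88867, 73795 and 86946, more than Gapdh itself in each library. Copies held 55.1% of the summed Gapdh value in the control, 51.4% with shRNA 1 and 53.2% with shRNA 2. The sum was 163097, 145340 and 165110, so that shRNA 1 was lower than the control by 0.17 on the log2 scale, where Gapdh by itself differed by -0.05. Copies of Pgk1 held 11.0%, 5.55% and 9.37%, chiefly Gm5537 (chromosome 3, 58102996 to 58104247), with 8131, 4010 and 7242. With these added, Pgk1 was below the control by 0.03 with shRNA 1 and above it by 0.09 with shRNA 2, and no longer exceeded the control in both. The other 7 genes with copies had at most 2.20% of their sum in them, and 23 genes had none.

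The sequences of Eno1 and Gapdh beside a copy are shown because so few of the aligned bases tell them apart. Eno1 and Gm4735 differ at 5 of 1302 aligned bases, Gapdh and Gm13394 at 1 of 1000, Eno1 and Eno1b at 9 of 1736, and Pgk1 and Gm5537 at 0 of 1252. Each stretch below is 61 bases of the GENCODE M21 transcripts, within the coding part, with the differing base in capitals.
Eno1: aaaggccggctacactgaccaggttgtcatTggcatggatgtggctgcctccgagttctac
Gm4735: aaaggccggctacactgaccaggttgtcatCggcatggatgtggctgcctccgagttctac
Gapdh: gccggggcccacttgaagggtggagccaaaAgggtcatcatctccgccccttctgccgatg
Gm13394: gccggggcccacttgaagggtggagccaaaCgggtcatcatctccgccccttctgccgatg
Counted from the first base of the start codon of the member, the differences are T726C for Eno1 against Gm4735 and A346C for Gapdh against Gm13394. Within the aligned bases, a read that does not cross a differing base matches both features equally. No source used here says how such reads were divided. The Eno1 transcript compared has 2027 bases against 1302 in Gm4735, and that of Gapdh has 1420 against 1000 in Gm13394. Reads from outside the aligned part have no counterpart in that copy.

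**Figure D3:**
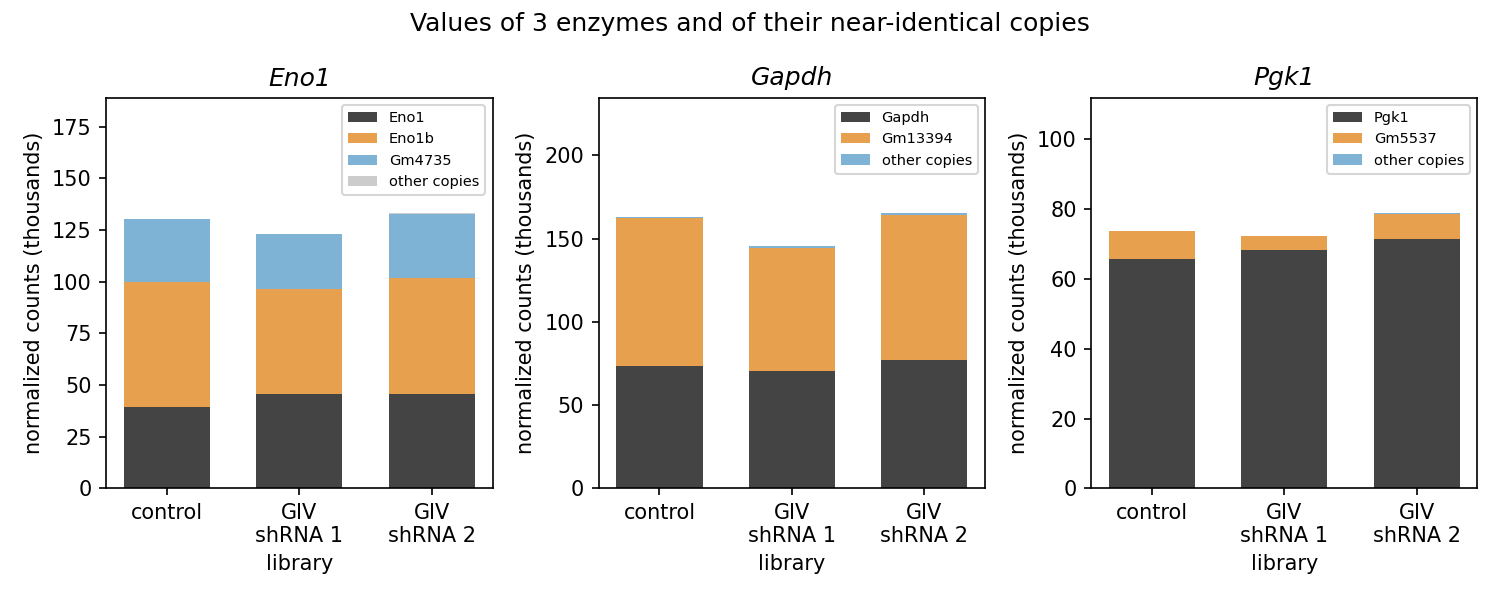
Stacked bars of normalized counts, scaled down by 1000 on the axis, for Eno1, Gapdh and Pgk1 and their near-identical copies, 1 bar per library. Eno1 itself is the dark lower part, at 39176 in the control and 45599 and 45809 in the others, while the whole bar is 130539, 123205 and 133004.

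All 4 genes of lactate and pyruvate fate were higher with shRNA 2 than with shRNA 1, as were 27 of the 33 genes and 49.5% of all features. Pdk1, a kinase that shuts pyruvate dehydrogenase off and a known HIF-1 target, had 1086, 1268 and 1842 normalized counts. The control was lowest, and the differences were 0.22 for shRNA 1 and 0.76 for shRNA 2, with a mean of 0.49 (SE 0.28, adjusted p = 0.78 in limma). Ldha, which makes lactate, had 76263, 79497 and 85865, also lowest in the control (difference 0.12, SE 0.15). The lactate transporters Slc16a1 (MCT1) and Slc16a3 (MCT4) had the control between the other libraries. Slc16a1 had 11085, 10045 and 12301, and Slc16a3 had 9919, 9018 and 11975.

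Within the HIF system both Hif1a and Egln3 were lowest in the control. Hif1a, the oxygen-sensitive alpha subunit, had 8937, 10753 and 11943 normalized counts, a difference of 0.34 (SE 0.14, adjusted p = 0.73 in limma) that ranged from 0.27 to 0.36 over the settings that keep both GIV shRNA libraries and was 0.27 with shRNA 1 alone and 0.42 with shRNA 2 alone. Egln3, a hypoxia-induced prolyl hydroxylase (chromosome 12, 54178981 to 54203860), had 7.42, 20.9 and 49.0, the largest difference of the set at 1.97 (SE 0.71, adjusted p = 0.72 in limma) and the lowest level. Its control value stands for fewer than 10 reads, so the fold is imprecise. Egln1, the main oxygen sensor of the family, had 646, 600 and 806, with the control between. Per kilobase Egln3 was 1.53% of the sum of Egln1 and Egln3 in the control, 4.49% with shRNA 1 and 7.58% with shRNA 2.

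The 6 other hypoxia-response genes had no common direction. Bnip3, a mitophagy receptor, had 3040, 3101 and 4470 normalized counts, so that shRNA 2 was above the control by 0.56 on the log2 scale while shRNA 1 differed by 0.03. Adm, the secreted peptide adrenomedullin, had 153, 102 and 246, with shRNA 1 lower by 0.58 and shRNA 2 higher by 0.68. It was the gene with the widest gap between the shRNAs, at 1.26. Vegfa, the angiogenic growth factor, went the other way, with 1226, 1538 and 1172. Ndrg1, a stress-response gene, had 2032, 2383 and 2124, lowest in the control. P4ha1, the catalytic subunit of collagen prolyl 4-hydroxylase, had 22389, 21198 and 19620, highest in the control. Ankrd37, a small ankyrin-repeat protein, had 235, 214 and 274. By the size rule of 1.5-fold on value plus 1, the 33 genes held 1 higher with shRNA 1 (Egln3, against 8.83% of all features) and 1 lower (Hk3, against 7.85%). With shRNA 2 there were 4 higher (Egln3, Pdk1, Adm and Pfkm, against 9.99%) and 0 lower (against 7.19%). At 2-fold, Egln3 was the 1 gene higher with shRNA 1 (3.98% of all features) and the 1 higher with shRNA 2 (4.78%), 0 genes were lower with shRNA 1 (2.94%) or with shRNA 2 (2.54%), and Egln3 and Adm were the 2 apart between the shRNAs (6.23%).

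A second list of 39 hypoxia-response symbols, sharing no member with the first, was read in the same way. Of the 33 tested, 19 had the control below both others and 7 above both, with 34.9% and 35.2% of all features as background, and the median difference was 0.18 beside -0.001. None passed the adjusted p of 0.05 in limma, and 4 had an unadjusted p under 0.05, against 6.94% of all features. The 3 with the largest differences were P4ha2, Plod2 and Stc2. P4ha2, a second collagen prolyl 4-hydroxylase subunit, had 8.24, 45.8 and 83.9 normalized counts (difference 2.77, SE 0.57, adjusted p = 0.48 in limma). Its control value, too, stands for fewer than 10 reads. Plod2, a lysyl hydroxylase of collagen, had 120, 341 and 610 (difference 1.92, SE 0.43, adjusted p = 0.52 in limma). Stc2, the secreted protein stanniocalcin 2, had 168, 434 and 738 (difference 1.75, SE 0.39, adjusted p = 0.52 in limma). In each of them shRNA 2 was the highest library and the control the lowest. P4ha1 and Plod1, relatives of P4ha2 and Plod2 named after their values were seen, were highest in the control instead, Plod1 with 8419, 7526 and 6431. By the 1.5-fold rule 6 of these 33 were higher with shRNA 1 (against 8.83% of all features) and 2 lower (against 7.85%), and 8 were higher with shRNA 2 (against 9.99%) and 1 lower (against 7.19%).

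**Figure D4:**
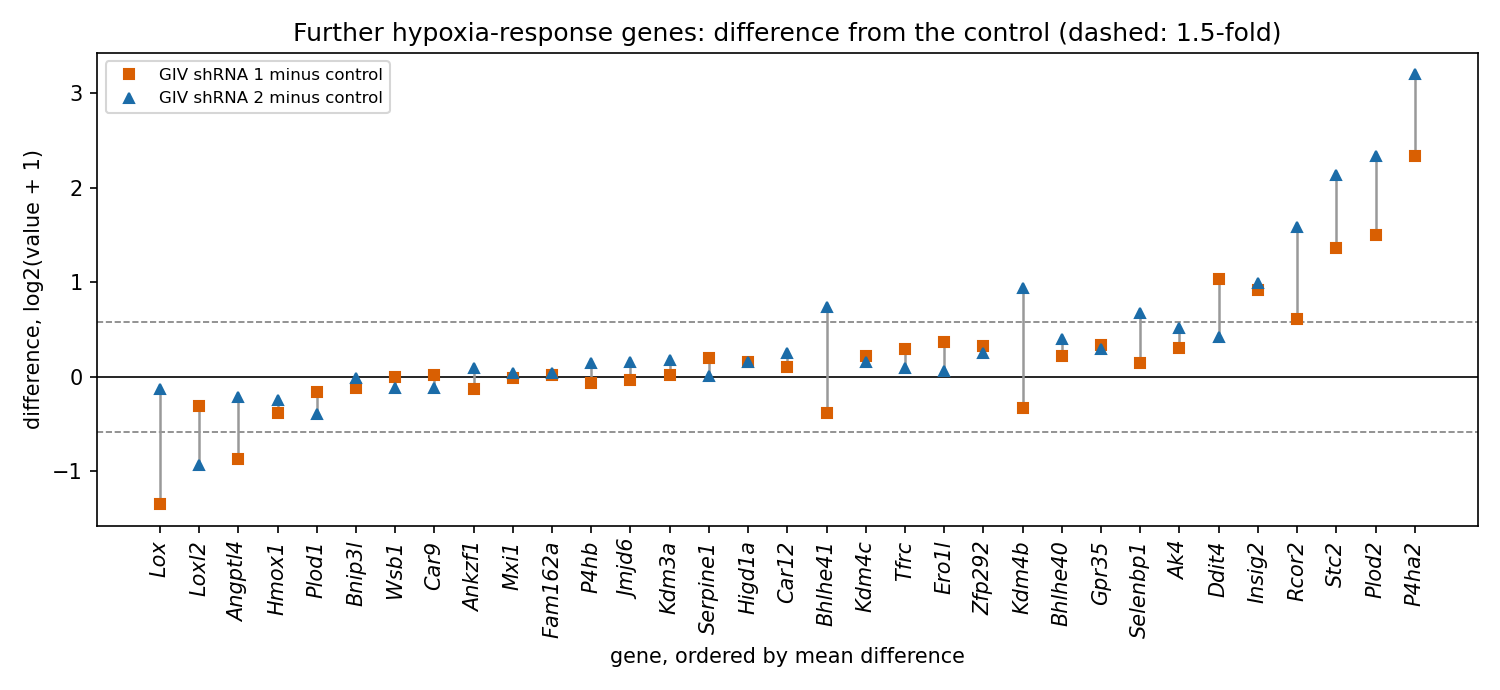
Difference from the control on the log2(value + 1) scale of 33 further hypoxia-response genes, ordered by mean difference, with squares for shRNA 1 and triangles for shRNA 2. P4ha2, Plod2 and Stc2 lie at the right end with both points above 1.3, and Bhlhe41 and Kdm4b have points on either side of 0.

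Regulators of HIF outside the 33 genes showed 6 of 16 with the control below both others (against 34.9% of all features) and 6 with it above both (against 35.2%), and a median of 0.001. Crebbp, a histone acetyltransferase and HIF coactivator, stood out with 846, 2215 and 2214 normalized counts (difference 1.39, SE 0.14, adjusted p = 0.19 in limma). Siah2, a ubiquitin ligase acting on prolyl hydroxylases, had 1011, 1401 and 1244, and Egln2, the remaining prolyl hydroxylase of this family, had 1598, 1379 and 1112. Epas1, which encodes HIF-2 alpha, and Hif3a were at or near the detection floor, with 0.93, 2.22 and 3.85 and with 0, 0 and 1.93, and Arnt had 2974, 2616 and 2692.

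Of 31 further glycolysis and glucose-entry symbols, 30 were matched and 19 were tested. The control lay below both other libraries for 6, against 34.9% of all features, and above both for 7, against 35.2%, and the median difference was -0.02. Some isozymes of other tissues, among them Pklr, Ldhb, Ldhc, Pgam2 and Hkdc1, were listed at 0 in all 3 libraries. Not all further isozymes were absent. Eno3, another enolase, had 296, 362 and 345 normalized counts, and Pfkfb1 had 101, 106 and 110. Slc16a7, the monocarboxylate transporter MCT2, was highest in the control with 171, 64.2 and 117 normalized counts (difference -0.97, SE 0.48). Bpgm, which diverts 1,3-bisphosphoglycerate, had 196, 262 and 365 (0.66, SE 0.31), and Gpd2, the mitochondrial glycerol 3-phosphate dehydrogenase, had 1748, 2501 and 2775 (0.59, SE 0.15). None passed the adjusted p of 0.05 in limma.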

How the data were processed

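The deposited table holds the authors' normalized counts, treated as a signal that is never negative, with 1 column per library. Per the submitters' processing notes, the tools were Salmon, DESeq and DESeq2 and the build was GRCm38. No version, role or annotation release was found in the sources used here. Of values up to 20 times the commonest lowest value, 73.3% to 78.5% per library were within 0.05 of a whole multiple of it, so whole reads could not be recovered for nearly all genes and no count model was run. Identifiers were matched without version to GENCODE M21 (GRCm38); 54097 of 54331 had a symbol.

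After a minimum mean of 10, log2(value + 1) entered limma 3.58.1 under R 4.3.3 (lmFit, eBayes with a trend, two-sided, Benjamini-Hochberg over 13877 features). Groups came from the sample titles, 2 libraries against 1. The single residual degree of freedom lies between the 2 GIV shRNA libraries, and the fit takes the single control to have the same variance. The fit was tested on simulated data, where false calls exceeded the nominal share, so an adjusted p here is not a strict bound on them. Single libraries were compared by a 1.5-fold size rule without a test. Copies were found with blastn 2.17.0. Promoter windows are from RefSeq on GRCm38.p6.

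The 33 genes and all lists were chosen with earlier results of these data known. Named by rule were all 33 genes, the 3 tested genes of each further list with the largest mean difference, and copies holding over 10% of a summed value; any other gene was picked with its values in view. Alternatives covered the pseudocount, the filter, scaling, the variance trend, the GC and length trend, copies and leaving out a library.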

Additional observations from a re-analysis of the deposited data

How the results depend on the processing

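Over 10 alternatives to the fit, 0 of the 33 genes passed an adjusted p of 0.05 in limma. Leaving out 1 library labelled GIV-depleted moved the median difference between -0.03 (without shRNA 2) and 0.14 (without shRNA 1). The control was then below the remaining GIV shRNA library for 15 genes with shRNA 1 alone and 27 with shRNA 2 alone. It was above that library for 18 and 6 genes. The matching shares of all features were not counted. The median difference over all features tested was 0.0005 with shRNA 1 and -0.002 with shRNA 2, so both directions were about equally common there. That no count fell below the 13 and 4 of the main fit follows from comparing with 1 library in place of 2. The split between the shRNAs does not follow from that. Under the 2-fold rule the genes higher with shRNA 2 numbered 1 in place of 4, those lower with shRNA 1 numbered 0 in place of 1, and 2 in place of 3 were apart between the shRNAs. With a minimum mean of 50 the gene higher with shRNA 1 was not tested, leaving 0. With equal totals 2 genes were lower with shRNA 1 and 5 were apart between the shRNAs, and with quantile normalization 2 were lower with shRNA 1. Genes higher with shRNA 2 numbered from 3 to 5 over the settings that kept the 1.5-fold rule. The cause of these shifts was not tested beyond what the stricter rule and filter set by construction. Of 52 named genes, the mean difference changed sign in 5 with the GC and length trend removed (Slc2a6, Pfkp, Aldoa, Pkm and Slc16a1), in 2 with quantile normalization (Pfkfb3 and Ankrd37), in 1 with equal totals (Pfkfb3) and in 2 of 33 with copies added (Gapdh and Eno1). These counts are of refits that keep both GIV shRNA libraries. Leaving out 1 or the other also changes the sign, by construction, for each of the 16 genes with the control between the other libraries. No paired analysis was possible because the lone control library shares no replicate number with the others in the labels. The depth limits Egln3 and P4ha2, whose control values stand for fewer than 10 reads.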

Other observations

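Branches that leave or follow glycolysis were also read from these libraries. In the list of pentose phosphate, glycogen and serine branch genes, 10 of 20 tested had the control above both libraries labelled GIV-depleted, against 35.2% of all features, and 5 had it below both, against 34.9%, with a median log2 difference of -0.07. The oxidative and non-oxidative pentose phosphate enzymes Pgls, Pgd, Tkt, Taldo1, Rpia and Rpe, named after their values were seen, were all highest in the control. Tkt, transketolase, had 18453, 16621 and 15963 normalized counts in the control, shRNA 1 and shRNA 2 libraries, and Pgls had 2088, 1681 and 1460. G6pdx, the entry enzyme of the pathway, had 9926, 9169 and 10627 and so had the control between. The genes with the largest differences in that list went the other way. Shmt1, a serine hydroxymethyltransferase, had 675, 837 and 1156, Pygb, a glycogen phosphorylase, had 863, 1177 and 1242, and Gfpt1, the entry enzyme of hexosamine synthesis, had 3273, 4606 and 4137. None passed an adjusted p of 0.05 in limma, and 2 had an unadjusted p under 0.05, against 6.94% of all features.

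Genes of pyruvate entry and the TCA cycle lay close to the control, with 31 of 32 tested within 1.5-fold of the control in both libraries, against 74.8% of all features. The exception was Idh2, the mitochondrial NADP-dependent isocitrate dehydrogenase, with 5419, 3646 and 2866 normalized counts (difference -0.75, SE 0.20, adjusted p = 0.61 in limma), the control being the highest library. Suclg2, a succinyl-CoA ligase subunit, had 3919, 4699 and 5001, and Mpc1, a subunit of the mitochondrial pyruvate carrier, had 1119, 1326 and 1295. Among transcription factors and kinases linked to glycolysis, 22 of 22 tested were within 1.5-fold, again against 74.8% of all features. Both lists are more abundant than the background. Their median mean values were 4115 for the TCA list and 2725 for this one, against 823 normalized counts over all features tested. Myc had 2766, 2285 and 2150, Mycn had 9008, 8480 and 6295, both highest in the control, and Rictor, a subunit of mTOR complex 2, had 2045, 2855 and 2320.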
